A study of Mus musculus with 36 samples.

Results

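Ctsk, Rhox5, Mycn and Slpi are genes that mark the BV-2 microglial cell line in a study of Usp18, the protease that removes ISG15 from proteins and restrains interferon signalling. They are 4 of the 12394 genes that have a probe set of their own on the array, and they were chosen by their high values in BV-2 cells and their low values in primary microglia. All 6 probe sets with these gene symbols, of 22690 on the array, were read on all 36 arrays. The difference between BV-2 cells and microglia is therefore given as a description with no test, while the responses to interferon, to siRNA and to genotype were tested.

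Total RNA was measured in 18 groups of 2 replicates. Primary mouse microglia were wild type (WT), from Usp18 knockout mice (KO) or from mice with the Usp18 C61A mutation, and BV-2 cells received either Usp18 siRNA or control siRNA. Cells were harvested untreated (0 h) or after 6 h or 24 h of IFN-b at 500 U/ml. All cells were grown in the same serum-containing medium. The arrays fall into 3 deposition runs of 12 by their order of deposition, with run 1 holding KO and WT microglia, run 2 the BV-2 cells, and run 3 C61A and WT microglia. The sources used here do not say what a run stands for in the laboratory, or the age and strain of the mice. Replicates are labelled biological, without saying whether they came from separate animals or cultures, and BV-2 is a single line.

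BV-2 cells were made by immortalising mouse microglia with a retrovirus that carries the v-raf and v-myc oncogenes, and they serve as a substitute for primary microglia. Of the 4 genes, Ctsk encodes cathepsin K, the lysosomal cysteine protease with which osteoclasts break down bone collagen. Rhox5 encodes a homeobox protein of the X-linked reproductive cluster, normally made in the testis, ovary and placenta. Mycn encodes N-Myc, a transcription factor of the MYC family that pairs with MAX and drives genes for ribosome production and growth. Slpi encodes a secreted inhibitor of leukocyte serine proteases that is induced in macrophages by bacterial products. None of these is among the genes by which resting microglia are usually recognised.

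The 4 genes lie on different chromosomes of the mouse genome (GRCm38.p6). Ctsk spans chr3:95499210-95509387, Rhox5 chrX:37754608-37808878, Mycn chr12:12936093-12941836 and Slpi chr2:164354070-164356507, and all 4 are annotated as protein coding. The 250 bases before each RefSeq start site are shown because these genes share a high level in BV-2 cells, Mycn and Slpi on the minus strand and the others on the plus strand. They are chr3:95498960-95499209 for Ctsk, chrX:37754358-37754607 for Rhox5, chr12:12941837-12942086 for Mycn and chr2:164356508-164356757 for Slpi. Each is written 5′ to 3′ on the strand of its gene, and the capitals mark matches to the 3 motifs searched.
Ctsk: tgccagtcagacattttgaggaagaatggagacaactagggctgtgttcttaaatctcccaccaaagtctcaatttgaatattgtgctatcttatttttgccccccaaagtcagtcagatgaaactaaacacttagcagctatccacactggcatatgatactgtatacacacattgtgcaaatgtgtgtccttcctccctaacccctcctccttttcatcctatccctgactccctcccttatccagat
Rhox5: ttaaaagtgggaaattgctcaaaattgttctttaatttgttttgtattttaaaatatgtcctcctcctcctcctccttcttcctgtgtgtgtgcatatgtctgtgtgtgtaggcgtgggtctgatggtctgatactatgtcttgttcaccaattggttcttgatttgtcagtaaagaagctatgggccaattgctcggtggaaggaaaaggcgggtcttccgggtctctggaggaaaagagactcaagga
Mycn: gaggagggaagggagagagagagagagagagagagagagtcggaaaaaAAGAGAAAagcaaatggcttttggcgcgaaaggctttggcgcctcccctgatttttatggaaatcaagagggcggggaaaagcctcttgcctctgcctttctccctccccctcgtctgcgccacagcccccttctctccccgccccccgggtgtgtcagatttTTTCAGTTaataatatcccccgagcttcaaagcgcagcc
Slpi: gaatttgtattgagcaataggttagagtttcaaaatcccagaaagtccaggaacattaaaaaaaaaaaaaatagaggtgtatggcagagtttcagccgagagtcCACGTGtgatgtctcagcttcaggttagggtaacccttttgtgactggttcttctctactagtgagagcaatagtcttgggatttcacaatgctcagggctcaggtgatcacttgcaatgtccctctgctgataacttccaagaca

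None of the 3 motifs was found in more than 1 of the 4 windows. The E-box CACGTG, to which MYC and MAX bind, was searched on both strands and is found in the Slpi window alone, 146 to 141 bases before the start, and in 6.02% of the 32851 promoter windows of the same length. The core AANNGAAA of interferon response elements matched at 2 places in the Mycn window, 202 to 195 and 39 to 32 bases before the start, the second on the opposite strand. It occurs in 21.3% of all windows. The STAT site TTCNNNGAA, which occurs in 7.02%, had no match in any of the 4 windows. The number of CG pairs, the sites of DNA methylation, was 0 for Ctsk, 4 for Rhox5, 11 for Mycn and 2 for Slpi, against a median of 6 over all windows. A match describes letters in this window only.

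The deposited values are read as log2 intensities, a base inferred from their range. The medians of the 36 arrays lay between 5.59 and 5.83. Usp18 itself was low in the KO arrays, at 3.77 and 4.40 untreated and 5.85 to 6.42 with IFN-b, against 10.71 to 12.95 in WT with IFN-b. Under the Usp18 siRNA it stayed high: 7.92 and 9.0 untreated against 8.38 and 8.59 under the control siRNA, 11.10 and 12.49 against 12.15 and 12.04 at 6 h, and 11.07 and 11.48 against 11.51 and 11.73 at 24 h. The siRNA arrays overlapped at 0 h and 6 h, where the 12.49 is a doubtful array, and at 24 h both Usp18 siRNA arrays lay below both controls. The mean of 9 other interferon-induced genes ranged from 5.72 to 6.25 in untreated control siRNA cells and from 9.70 to 10.75 with IFN-b. Other untreated arrays were higher: 7.09 and 9.41 under the Usp18 siRNA, which form part of the BV-2 baseline, 6.73 and 8.61 in C61A, and 11.96 and 12.36 in KO. One array labelled untreated WT (run 3, replicate 1) had this mean at 11.90 and Usp18 at 12.97, and is treated as doubtful.

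The labelled cell types held for most arrays and not for all. Of 7 macrophage markers, all lay above the array median in both BV-2 cells and microglia. Of 14 microglia markers on the array, 7 (C1qa, C1qb, C1qc, Fcrls, Aif1, P2ry12 and Mertk) were lower in every BV-2 array than in every microglia array once 3 doubtful arrays were left out (beside 5.91% of all genes), C1qa with medians of 4.05 and 12.92. Over all arrays 3 of the 14 were, beside 1.93% of all genes. The BV-2 array labelled Usp18 siRNA at 6 h, replicate 2, stands apart: a set of 65 genes at least 2 log2 units higher on microglia arrays had a median of 8.11 there against 3.54 to 3.71 on the other BV-2 arrays, and all 65 were above every other BV-2 array. The set holds Fabp7, an astrocyte marker, and Olig1, an oligodendrocyte marker, and so marks the primary cultures and not microglia alone. The mean of 8 astrocyte markers was 3.96 to 4.13 on the other BV-2 arrays and 5.76 on this one. It was 4.69 to 6.13 on microglia arrays of run 1 and 6.02 to 9.38 on those of run 3 outside 6 h. For 6 oligodendrocyte markers these values were 3.58 to 4.11, 5.56, 5.09 to 6.55 and 5.50 to 6.87. Over 12394 genes the highest correlation of this BV-2 array was with the C61A 6 h array of replicate 2 (r = 0.977) and not with a BV-2 array. Its mean correlation was 0.948 with the other BV-2 arrays and 0.936 with the microglia arrays outside the doubtful and run 3 6 h arrays. All of 31 further BV-2 genes, described with the run 3 arrays, were higher there than on those microglia arrays. The microglia array labelled C61A at 6 h, replicate 2, is the third doubtful array and is described with the run 3 arrays. A member's value is given without these 3 arrays too wherever that turned its direction, changed its call or moved it by over 1.5 times.

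Ctsk was among the brightest probe sets of BV-2 cells. In control siRNA cells it read 13.35 and 13.51 untreated, 13.30 and 13.46 at 6 h, and 13.36 and 13.44 at 24 h. In Usp18 siRNA cells it read 13.33 and 13.56, then 13.38 and 13.26, then 13.38 and 13.34. The 12 BV-2 values thus span 0.30 log2 units. Its mean stood at percentile 100 of all probe sets by rounding in BV-2 cells, and at percentile 44.6 in microglia outside the 6 h arrays of run 3. On those 20 microglia arrays Ctsk read 4.49 to 5.97 with a median of 5.41, near or below the array medians.

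Rhox5 read 12.18 and 12.21 in untreated control siRNA cells, 12.24 and 12.15 at 6 h, and 12.20 and 12.25 at 24 h. In Usp18 siRNA cells it read 12.04 and 12.23 untreated, 12.02 and 11.38 at 6 h, and 11.82 and 11.39 at 24 h. All 4 Usp18 siRNA values after IFN-b, the 11.38 being the doubtful array, lay below all 6 control siRNA values. The untreated 12.04 did too, so this order was not confined to cells given IFN-b. On the 20 microglia arrays outside the 6 h arrays of run 3 it read 3.48 to 4.98 (median 4.07), below the array median on every one. This places it at percentile 98.7 of probe sets in BV-2 cells and 29.9 in microglia.

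Mycn has 3 probe sets, and a single one of them is high in BV-2 cells. Probe set 1425923_at read 13.62 and 13.45 in untreated control siRNA cells, 13.59 and 13.52 at 6 h, and 13.49 and 13.24 at 24 h. In Usp18 siRNA cells it read 13.55 and 13.48, then 13.31 and 13.12, then 13.26 and 12.97. Its level stood at percentile 100 by rounding in BV-2 cells and at 50.1 in microglia, where the 20 arrays read 5.38 to 6.27 (median 5.76). The other probe sets were low everywhere. Probe set 1425922_a_at, listed with the same transcript accession, read 3.71 to 4.26 in BV-2 cells and 3.67 to 4.36 in microglia. Probe set 1417155_at, listed with another, read 3.07 to 3.54 in BV-2 cells and 3.45 to 4.98 in microglia, where its median of 3.99 was the higher one. The 3 probe sets therefore disagree on whether Mycn is high in BV-2 cells, and which transcript sequence 1425923_at detects was not tested. Mycn below stands for the value of 1425923_at.

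**Figure D1:**
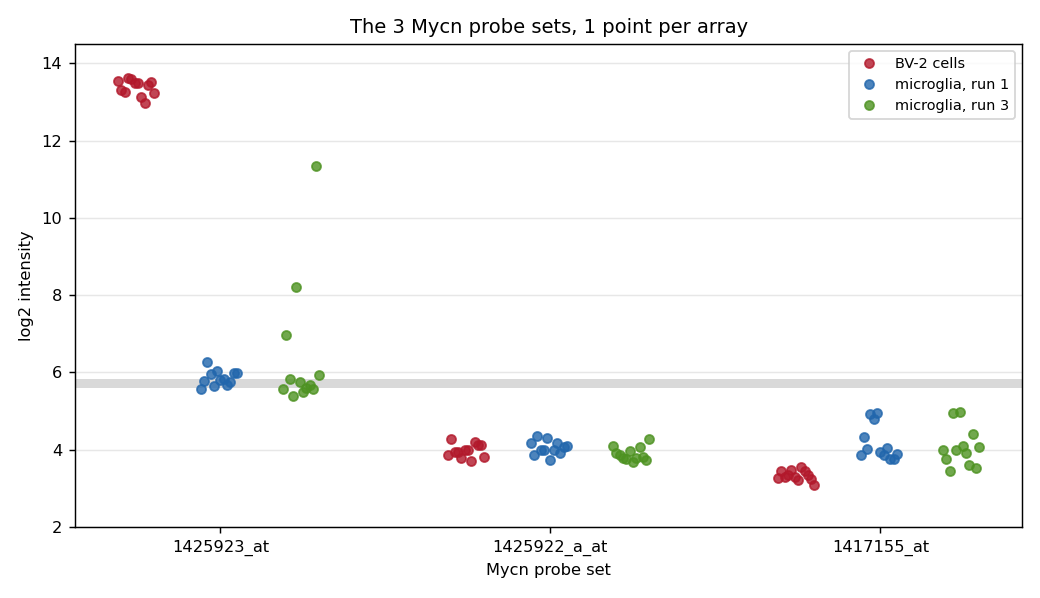
Log2 intensity (vertical axis) of the 3 Mycn probe sets (horizontal axis), 1 point per array in BV-2 cells (red), microglia of run 1 (blue) and microglia of run 3 (green), with the range of array medians in grey. Only 1425923_at separates the cells, at 12.97 to 13.62 in BV-2 cells, while 1425922_a_at overlaps and 1417155_at is at or under 3.54 in BV-2 cells.

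Slpi was high in BV-2 cells and the 1 member above the array median on most microglia arrays. It read 10.45 and 10.41 in untreated control siRNA cells, 10.43 and 10.41 at 6 h, and 10.60 and 10.90 at 24 h. In Usp18 siRNA cells it read 10.41 and 10.22, then 10.49 and 9.55, then 10.91 and 10.22, the 9.55 being the doubtful array. On the 24 microglia arrays it read 5.16 to 8.16 (median 6.43) and lay above the array median on 17 of them. Ctsk lay above it on 8 of the 24, Rhox5 on 2 and Mycn on 12.

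**Figure D2:**
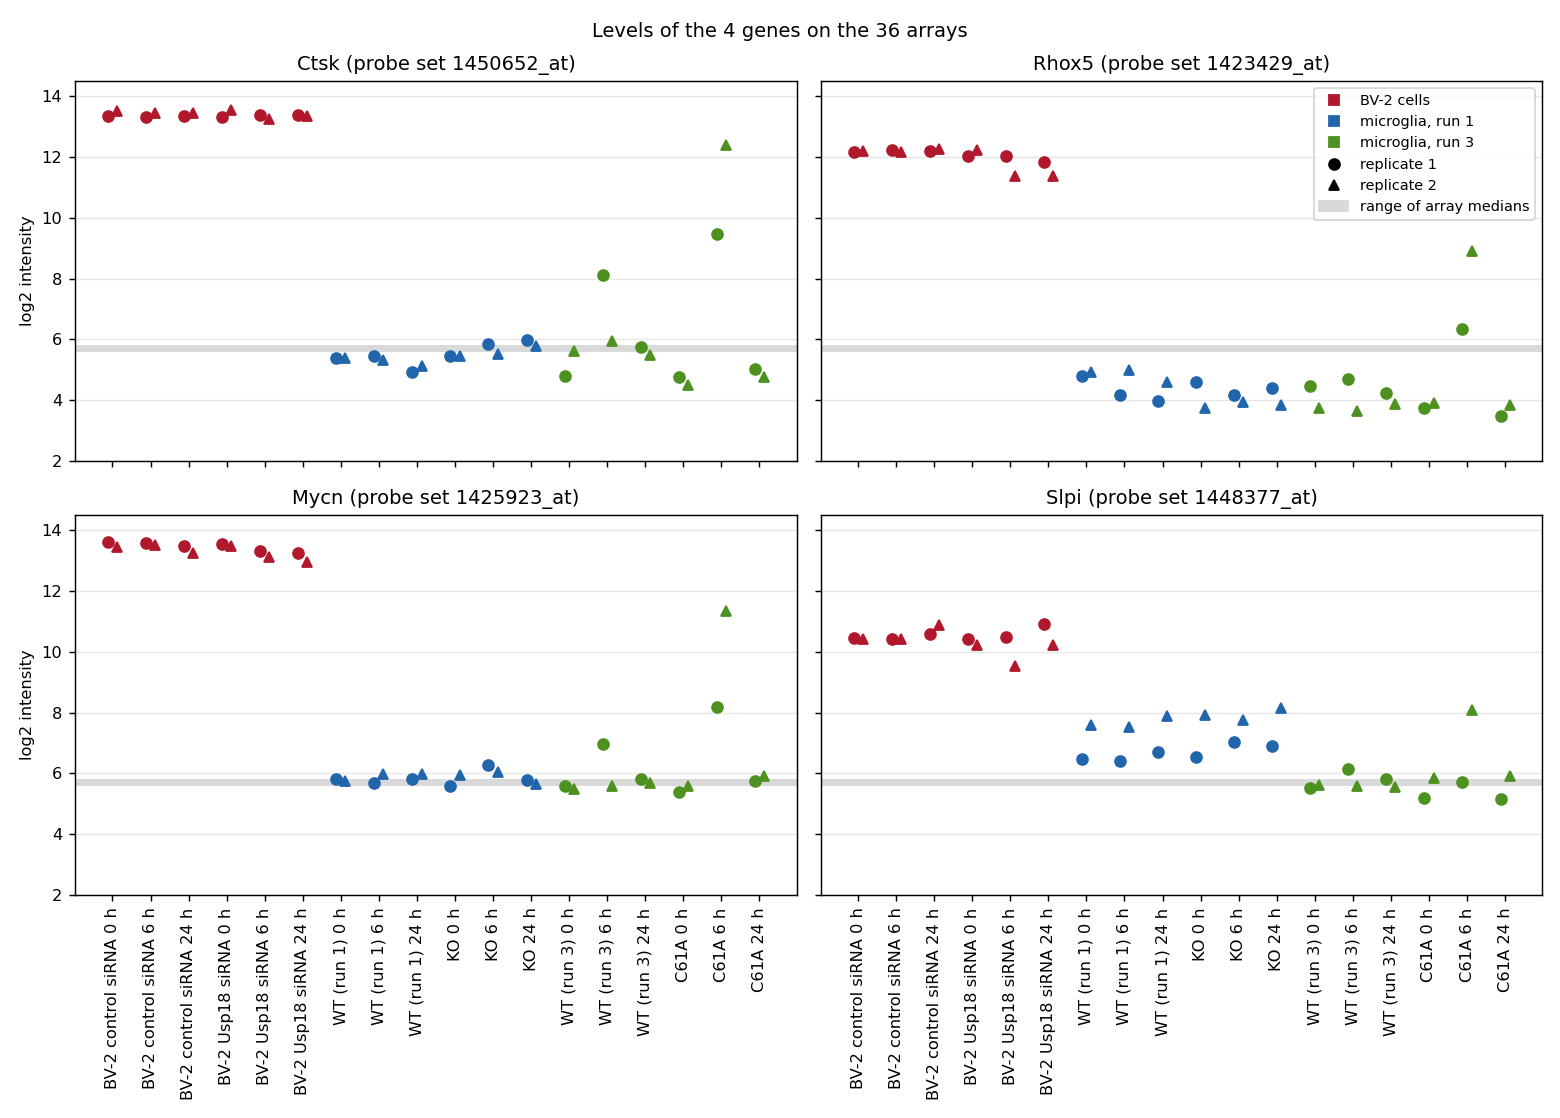
Log2 intensity (vertical axes) of the 4 genes on each of the 36 arrays, grouped by cell, treatment and time (horizontal axis), with replicate 1 as circles, replicate 2 as triangles, colours for BV-2 cells and for microglia of runs 1 and 3, and the range of array medians in grey. BV-2 values sit between 9.55 and 13.62, and the C61A 6 h arrays of run 3 stand above the other microglia for Ctsk, Rhox5 and Mycn.

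The distance between the cells can be read as the gap from the lowest BV-2 array to the highest microglia array. Over all arrays it was 0.87 for Ctsk, 2.48 for Rhox5, 1.63 for Mycn and 1.39 for Slpi, which ranked 106, 2, 26 and 39 among 12394 genes. Without the 3 doubtful arrays the gaps were 3.86, 5.06, 4.77 and 2.06, and the ranks 7, 3, 5 and 32. Without the other 6 h arrays of run 3 as well, an alternative added after seeing the data, they were 7.33, 6.42, 6.70 and 2.06, with ranks 1, 4, 3 and 34. All 4 members lay wholly above microglia in each case, as did 5.78% of all genes over all arrays and 6.88% without the doubtful ones. Since this contrast chose the members, nothing is read from the count. In RNA from whole cultures, fewer cells of a type and less RNA per cell cannot be told apart.

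Other genes stood as far apart. Without the doubtful arrays the largest gap was that of Tex101, a germ cell surface protein, at 6.50 with medians of 11.36 and 3.45. Mcoln3, an endolysosomal cation channel, had a gap of 5.50, and Gstm2, a glutathione transferase, 4.96. In the opposite direction Smpdl3a, a phosphodiesterase of macrophages, had the widest gap at 6.73, with medians of 3.09 in BV-2 cells and 11.33 in microglia. Ctsh, a cathepsin of the same papain-like family as cathepsin K, followed with 5.71, after Fabp7 (5.85) and C1qa (5.74).

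Of the relatives of Ctsk described here, 1 was wholly higher in BV-2 cells. Of the 8 other papain-like cathepsins on the array, 0 were wholly higher in BV-2 cells and 3 wholly lower without the doubtful arrays, beside 6.88% and 5.91% of all genes, with a median difference of -0.04 against -0.02 over all genes. The difference was -7.47 for Ctsh (medians 3.26 and 10.73) and -2.27 for Ctsc, whereas Ctss (12.94 and 13.16) and Ctsl (13.18 and 12.64) were bright in both and overlapped. Of 5 cystatins, inhibitors of these proteases, Cst3 was lower in BV-2 cells and the other 4 overlapped. Of 13 osteoclast genes, Ocstamp, needed for osteoclast fusion, was wholly higher (5.52 and 3.90) and Tnfrsf11a, the receptor for RANKL, lower (6.28 and 7.26). Acp5, the tartrate-resistant phosphatase of osteoclasts, had medians of 9.70 and 5.82 and overlapped. Over all 36 arrays Ctsh, Ctsc, Ctsb and Tnfrsf11a overlapped too, as did Ccnd2 and Timp3 of the lists that follow.

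The other 2 genes of the Rhox cluster on the array were not raised with Rhox5: Rhox6 had medians of 3.25 in BV-2 cells and 3.29 in microglia, and Rhox9 3.26 and 3.33. Among 13 germ cell genes, Tex101 alone was wholly higher in BV-2 cells and the other 12 overlapped. This is near the share of all genes wholly higher without the doubtful arrays, 6.88%, so nothing is read from the count. Among 8 genes of the DNA methylation machinery 2 were wholly higher, beside the same 6.88% of all genes. They were Dnmt1, the maintenance methyltransferase, by 2.10 (medians 9.86 and 7.76), and its partner Uhrf1 by 3.37 (8.76 and 5.39).

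Of 25 MYC target genes on the array, 10 were wholly higher in BV-2 cells, 1 was wholly lower and 14 overlapped, beside 6.88% and 5.91% of all genes, with a median difference of 1.32 against -0.02 over all genes. Nop56, a small nucleolar ribonucleoprotein subunit, was higher by 3.03 (medians 10.92 and 7.89), and Nop58, its partner, by 2.58. The D-type cyclin Ccnd2 was the lower one (3.86 and 9.29). Of 13 genes of the MYC family and its partners, Aurka, a mitotic kinase that stabilises N-Myc, was wholly higher by 4.20 and Mga, a MAX partner that opposes MYC, lower, with a difference of -1.86. Myc itself overlapped, with medians of 6.40 in BV-2 cells and 6.95 in microglia. Among inhibitors of the kind of Slpi, 0 of 7 other WAP domain genes were wholly higher or lower. Of 14 serpins and other protease inhibitors, Serpinb1a was wholly higher, by 2.63, and Timp3 lower, with a difference of -3.29. The neutrophil serine proteases that Slpi blocks were low in both, Elane with medians of 4.05 and 4.03.

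IFN-b moved none of the 4 members past the threshold in BV-2 cells, where a gene was called at an adjusted p under 0.05 (limma, Benjamini-Hochberg over 7163 genes). At 6 h 0 of 4 were called beside 4.12% of all genes, and at 24 h 0 of 4 beside 14.3%. Averaged over both siRNAs, Ctsk changed by -0.09 ± 0.107 (standard error) at 6 h and -0.06 ± 0.107 at 24 h. Without the doubtful array the 6 h changes were -0.06 for Ctsk, -0.06 for Rhox5 in place of -0.22, -0.09 for Mycn in place of -0.14, and 0.08 for Slpi in place of -0.15. The largest values were those of Mycn at 24 h, -0.29 ± 0.118 (unadjusted p = 0.0387, adjusted p = 0.137), and of Slpi at 24 h, 0.29 ± 0.220 (adjusted p = 0.407). For comparison, Usp18 rose by 3.47 at 6 h (adjusted p = 0.000703). The members' levels in the line were thus not shown to respond, within errors of 0.107 to 0.220 log2 units. Whether signal saturates at the bright values of Ctsk and Mycn was not tested.

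The MYC target genes moved at 24 h in the same cells. Of 23 tested, 12 fell and 0 rose, beside 14.3% of all genes called, with a median change of -0.58 against -0.06 over all genes tested. Shmt2, a mitochondrial serine hydroxymethyltransferase, fell by 1.10 (adjusted p = 0.00233), and Srm, spermidine synthase, fell by 1.06 (adjusted p = 0.00584). Cad, the first enzyme of pyrimidine synthesis, fell by 1.07 (adjusted p = 0.0266). Aurka fell by 1.15 (adjusted p = 0.00944). At 6 h 2 of the 23 had fallen, where Srm fell by 0.86 and Shmt2 fell by 0.76. Without the doubtful array 16 fell at 24 h. The count rests on few arrays: it was 0 with the control siRNA arrays alone in the contrast, and 2 without replicate 2 of the control siRNA at 0 h or at 24 h. It was 3 without either untreated Usp18 siRNA array or replicate 2 of that siRNA at 24 h, and 6 without replicate 1 of the control siRNA at 24 h. It was 17 with a replicate block.

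**Figure D3:**
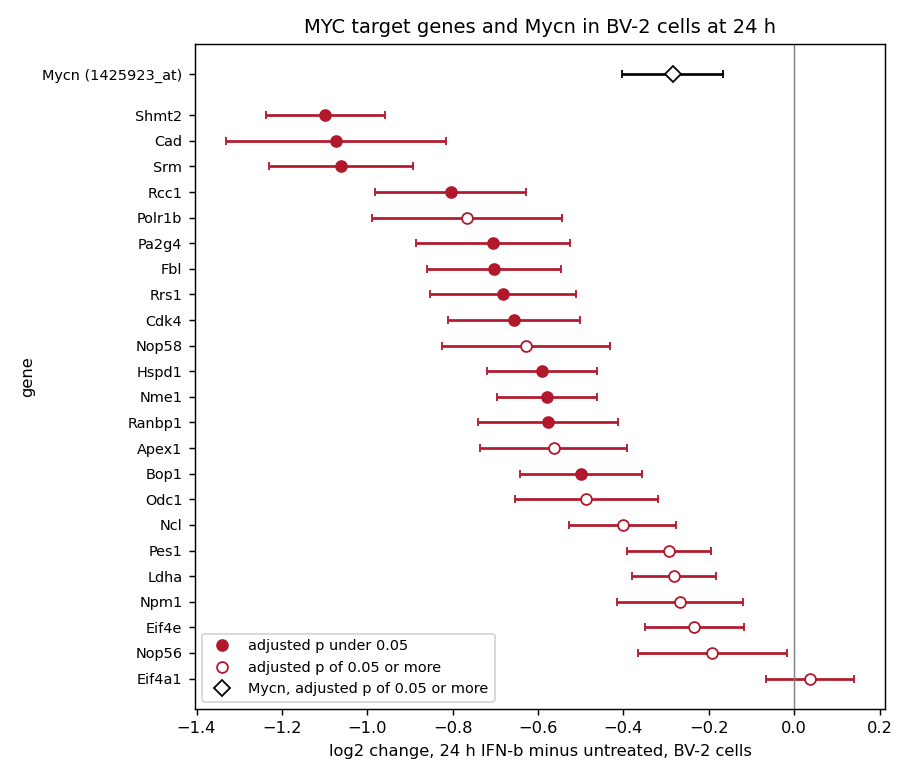
Log2 change between 24 h of IFN-b and untreated BV-2 cells (horizontal axis, with standard errors) for 23 MYC target genes and for Mycn (vertical axis); filled points passed an adjusted p of 0.05 in limma. 12 targets are filled, all below 0, and Mycn lies at -0.29, unfilled.

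Of the other genes related to the members few were called, beside 4.12% of all genes at 6 h and 14.3% at 24 h. Ctss, a cathepsin of antigen presentation, rose by 0.49 at 24 h (adjusted p = 0.0133), 1 of 6 papain-like cathepsins tested. Serpinb9, the inhibitor of granzyme B, rose by 1.74 (adjusted p = 0.00982), 1 of 5 protease inhibitors tested. The de novo methyltransferase Dnmt3a fell by 0.74 at 6 h (adjusted p = 0.0112), 1 of 5 methylation genes tested. It fell by 0.55 at 24 h (adjusted p = 0.0217). Clcn7, the chloride transporter of osteoclasts and lysosomes, rose by 0.54 at 24 h (adjusted p = 0.0359), 1 of 9 osteoclast genes tested. Of 2 germ cell genes tested, 1 rose at 24 h, too few to read as a share. The other shares, of 1 in 5 to 1 in 9, are near that of all genes at 24 h.

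Between the Usp18 siRNA and the control siRNA 0 of 4 members were called at 0 h, 6 h or 24 h, where 0%, 0% and 5.35% of all genes were called. In limma 176 genes at 0 h and 1007 at 6 h had an unadjusted p under 0.05. Rhox5 differed by -0.49 ± 0.225 at 6 h (adjusted p = 0.365), and by -0.17 (adjusted p = 0.825) without the doubtful array. At 24 h the difference was -0.62 ± 0.225 (adjusted p = 0.115). The Usp18 siRNA arrays then read 11.82 and 11.39 and the control arrays 12.20 and 12.25. Leaving out replicate 1 of the Usp18 siRNA at 24 h gave -0.83 (adjusted p = 0.0429), where the 1 array left is assumed to vary like the other groups, and leaving out the doubtful array gave an adjusted p of 0.0545. The difference between siRNAs in the response to IFN-b, tested as an interaction, was -0.55 ± 0.318 for Rhox5 at 24 h (adjusted p = 0.546). Serpinb9 differed between the siRNAs at 24 h by 2.85 (adjusted p = 0.0164) and Uhrf1 by -1.05 (adjusted p = 0.0399), each 1 of 5 tested in its list.

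Rhox5 passed the filter on low values in microglia through the 2 C61A arrays at 6 h alone, so that no test of it in microglia is given. In WT microglia 0 of the 3 other members were called for IFN-b, beside 15.4% of 7960 genes tested at 6 h and 2.59% at 24 h. Ctsk had the largest value, 0.91 ± 0.502 at 6 h (adjusted p = 0.226), and 0.69 without the doubtful untreated array. It was -0.001 in run 1 alone, where Ctsk read 5.37 and 5.38 untreated and 5.45 and 5.31 at 6 h. In run 3 it read 4.79 and 5.63 untreated and 8.11 and 5.94 at 6 h.

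Between KO and WT microglia of run 1, 0 of the 3 members were called at 0 h, 6 h or 24 h by the same test, beside 16.8%, 8.32% and 29.1% of all genes. At 24 h Ctsk read 5.97 and 5.78 in KO arrays and 4.92 and 5.11 in WT arrays, a difference of 0.86 ± 0.710 (adjusted p = 0.396). Without the doubtful arrays and the other 6 h arrays of run 3, whose spread enters the error, the same difference had an adjusted p of 0.00292. MYC target genes were called here too: at 24 h 12 of 24 tested were lower in KO and 1, Ccnd2, was higher, by 3.46, with a median of -0.80 against -0.07 over all genes. The difference was -1.49 for Srm and -1.58 for Pa2g4, a proliferation-associated nucleolar protein. The count of lower genes was 4 without replicate 1 of KO at 24 h, and 5 and 6 without replicate 1 and 2 of WT.

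In run 3 the C61A arrays at 6 h carried 3 of the BV-2 genes, and WT replicate 1 at 6 h carried Ctsk and Mycn at lower levels. Ctsk read 12.39 and 9.45 in the C61A arrays (replicates 2 and 1), 8.11 and 5.94 in the WT arrays (replicates 1 and 2), and 4.49 to 5.73 on the 8 arrays of run 3 at 0 h and 24 h. Mycn read 11.35, 8.20, 6.96 and 5.59 on the same 4 arrays, and 5.38 to 5.92 on the other 8. Rhox5 read 8.90, 6.33, 4.69 and 3.64, and 3.48 to 4.46 on the other 8. The 4 arrays fall in the same order for all 3 genes. WT replicate 2 lay within the range of the other 8 for Mycn and Rhox5. Rhox5 on WT replicate 1 lay below the highest value of run 1, 4.98. Slpi read 8.09, 5.71, 6.16 and 5.57, and 5.16 to 5.91 on the others, and did not keep the order. As a share of the BV-2 median on the linear scale, C61A replicate 2 had 50.6% for Ctsk, 22.8% for Mycn, 19.8% for Slpi and 10.2% for Rhox5. C61A replicate 1 had 6.55%, 2.58%, 3.79% and 1.73%, and WT replicate 1 had 2.59%, 1.09%, 5.20% and 0.554%. At these low values the shares include background signal. The BV-2 medians of Ctsk (13.38) and Mycn (13.48) lay near the highest deposited value, 14.03. Whether signal saturates there was not tested.

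Other BV-2 genes were high on 1 of these arrays. A list of 31 further genes, taken after seeing the data as those at least 2 log2 units higher on every BV-2 array than on every microglia array outside the doubtful and run 3 6 h arrays, had a median of 5.91 on C61A replicate 2 at 6 h, against 3.70 to 4.27 on the other microglia arrays. Of the 31, 30 were higher on that array than on all 19 microglia arrays outside the doubtful and run 3 6 h arrays, and 18 of the 31 lay above its array median. The count of genes higher than on all those 19 arrays was 4 on C61A replicate 1, 5 on WT replicate 1 and 1 on WT replicate 2. The mean correlation of C61A replicate 2 with the BV-2 arrays over 12394 genes was 0.912, while that of its replicate 1 was 0.862. The 65 genes higher in the primary cultures remained high on C61A replicate 2, with a median of 8.82. The mean of the 9 interferon-induced genes was 9.86 on replicate 2 and 12.11 on replicate 1. The highest correlation of C61A replicate 2 was with the WT 6 h array of replicate 1 (r = 0.983). Whether material was mixed or exchanged between these arrays was not tested.

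**Figure D4:**
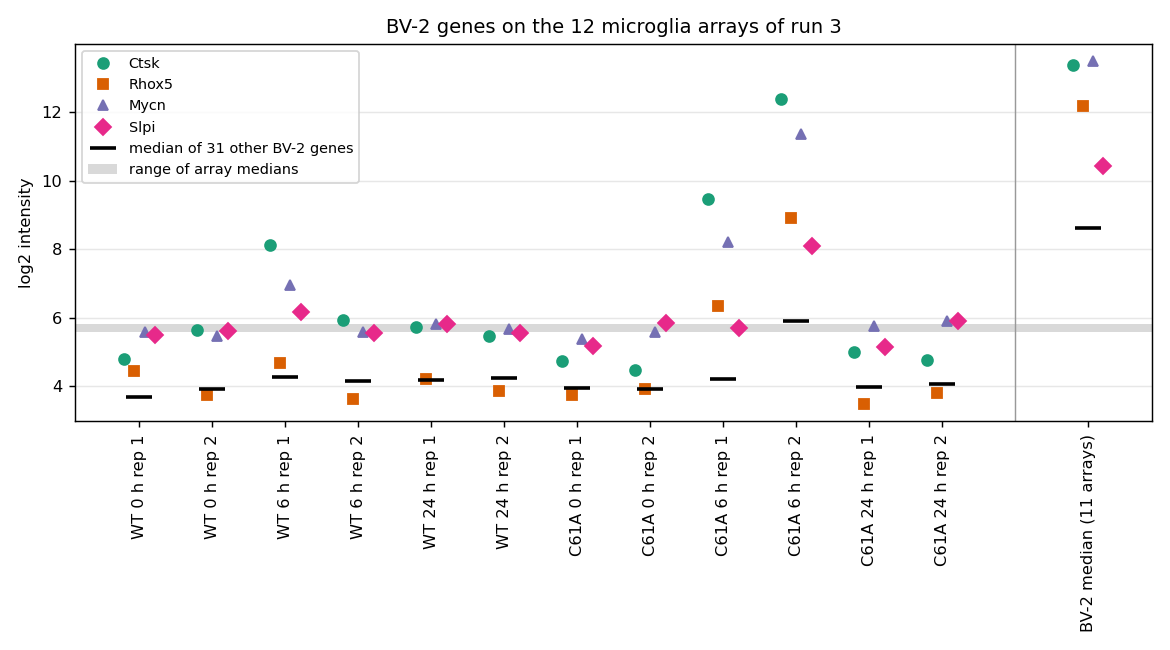
Log2 intensity (vertical axis) of the 4 genes and the median of 31 other BV-2 genes (black dashes) on the 12 microglia arrays of run 3 (horizontal axis), with the BV-2 medians over 11 arrays at the right and the range of array medians in grey. Ctsk reaches 12.39 and Mycn 11.35 on C61A 6 h replicate 2, where the 31 genes have a median of 5.91, and on C61A 6 h replicate 1 Ctsk is at 9.45.

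Between C61A and WT microglia 0 of the 3 members were called at 0 h, 6 h or 24 h, beside 0.0126%, 0.0126% and 0.0251% of all genes. At 6 h the differences were 3.90 ± 0.710 for Ctsk and 3.50 ± 0.654 for Mycn, both with an adjusted p of 0.114 in limma, and 1.03 ± 0.724 for Slpi (adjusted p = 0.998). These sizes follow the arrays just described. Without the doubtful arrays they were 2.42 for Ctsk (adjusted p = 0.255), 1.93 for Mycn (adjusted p = 0.157) and -0.16 for Slpi (adjusted p = 0.976). Without replicate 1 of C61A at 6 h, Ctsk (5.37) and Mycn (5.07) passed the threshold. The group is then the doubtful array alone, its spread is assumed from the other groups, and nothing is read from these calls. At 0 h Ctsk read 4.75 and 4.49 in C61A and 4.79 and 5.63 in WT, and at 24 h 5.01 and 4.77 against 5.73 and 5.48.

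Among the microglia arrays the 3 genes followed each other through those few arrays. Over 22 arrays without the doubtful ones, the gene most like Ctsk of 7923 was Mycn (Pearson r = 0.889), followed by Rhox5 (r = 0.686), and the gene most like Rhox5 was Mycn (r = 0.751). Over 19 arrays without the run 3 6 h arrays, r was 0.245 for Ctsk with Mycn and 0.227 for Ctsk with Rhox5. In the 11 BV-2 arrays Rhox5 and Mycn had r = 0.792, and Ctsk had r = 0.040 with Mycn. There the nearest genes were Ahsa1 for Ctsk (r = 0.864), Cox5b for Rhox5 (r = 0.975), Dock1 for Mycn (r = 0.985) and Mgst2 for Slpi (r = 0.933). These values describe arrays that share treatment groups, and carry no test.

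Slpi was the 1 member called between the deposition runs over all arrays. In WT arrays of run 1 it read 6.47 and 7.60 untreated, 6.40 and 7.54 at 6 h, and 6.69 and 7.88 at 24 h. In WT arrays of run 3 it read 5.51 and 5.62, then 6.16 and 5.57, then 5.81 and 5.56, all 6 below all 6 of run 1. It fell by 1.39 ± 0.418 from run 1 to run 3 (adjusted p = 0.0112, limma), 1 of 3 members called, beside 55.1% of all genes. The tests between runs take the times of 1 culture as separate arrays, so their errors are too small for a difference between cultures. Ctsk differed by 0.69 ± 0.410 (adjusted p = 0.166), and by 0.83 (adjusted p = 0.0244) without the doubtful arrays. The mean of 8 astrocyte markers was 4.69 to 6.13 on the arrays of run 1 and 6.02 to 9.38 on those of run 3 outside 6 h, and its part in the Slpi difference was not tested. Run and any other difference between these WT preparations cannot be told apart.

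Within run 1 Slpi also parted by replicate number. The 6 arrays of replicate 1, 3 WT and 3 KO, read 6.40 to 7.03 (median 6.62), and the 6 of replicate 2 read 7.54 to 8.16 (median 7.81). In KO arrays replicates 1 and 2 read 6.55 and 7.92 untreated, 7.03 and 7.75 at 6 h, and 6.91 and 8.16 at 24 h. The step was present in WT and KO arrays at each time. A number was taken to follow 1 culture through the times of a condition, so these times are repeats of the same cultures. In run 3 the replicate 1 arrays read 5.16 to 6.16 and the replicate 2 arrays 5.56 to 8.09, which overlap. Ctsk, Rhox5 and Mycn overlapped between the replicate numbers of run 1. Over 22 microglia arrays the gene most like Slpi was Gyg, glycogenin (r = 0.940). Slpi in C61A arrays read 5.19 and 5.86 untreated and 5.16 and 5.91 at 24 h, with the higher value in replicate 2. In WT arrays of run 3 replicate 1 was the higher at 6 h (6.16 and 5.57) and at 24 h (5.81 and 5.56). Replicate 2 was the higher there untreated (5.51 and 5.62).

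**Figure D5:**
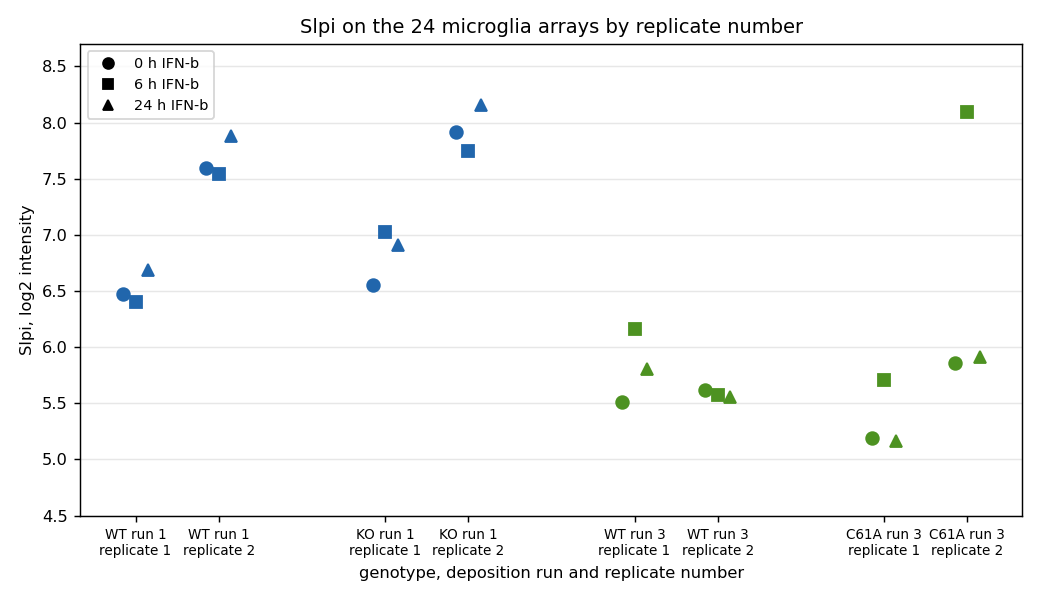
Slpi log2 intensity (vertical axis) on the 24 microglia arrays by genotype, deposition run and replicate number (horizontal axis), with shapes for 0 h, 6 h and 24 h of IFN-b. In run 1 the replicate 2 arrays sit between 7.54 and 8.16, above the replicate 1 arrays at 6.40 to 7.03, and run 3 lies at 5.16 to 6.16 apart from C61A 6 h replicate 2 at 8.09.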

How the data were processed

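Expression was measured on Affymetrix arrays of 22690 probe sets. Per the submitters' processing notes the authors used affy. The sources used here name neither a version nor how probe sets were summarised and normalized. The authors deposited what their range (1.66 to 14.03) shows to be log2 intensities, an inference, and these were used unchanged. RNA was isolated with a column kit and labelled by 3' amplification, per the labels' protocols. Precision is limited by having 2 arrays per group.

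Groups came from the labels. Probe sets were named through GEO's platform annotation, 20393 with 1 gene, 691 with several and 1606 unnamed, and the latter 2 kinds were left out. A gene was tested by its probe set with the highest mean among those that exceeded the array median at least 2 times in the fit, which left 7960 genes in 24 microglia arrays and 7163 in 12 BV-2 arrays. Group means were compared with limma 3.58.1 in R 4.3.3 (empirical Bayes, Benjamini-Hochberg over all genes, threshold 0.05, 12 and 6 residual degrees of freedom), tested on simulated data. P-values measure the spread between these samples, which may be technical. For the gap between cells, lists and likeness, a gene was read by its probe set with the highest mean over all arrays. Named genes are the members, the nearest genes by r, the largest gaps, and genes of lists around each member's function. The members and lists were chosen with earlier results of these data known. Promoter sequences are RefSeq's for GRCm38.p6.

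Replicate deviations from group means correlated at 0.283 to 0.811 between times of 1 condition, so a number was taken to follow 1 culture through the times only within a condition. Between conditions at 1 time they correlated at -0.088 to -0.066 in run 1, -0.447 to -0.031 in run 3 and 0.239 to 0.477 in BV-2 cells. Alternatives were centring, quantile normalization, no filter, every probe set, 1 run or siRNA alone, leaving out arrays, and a replicate block. The block went by number within a run or, for IFN-b, by culture across times. The main fit had no block.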

Additional observations from a re-analysis of the deposited data

How the results depend on the processing

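With 2 arrays a group, single arrays set the error. Counts of members called under the alternatives differed from those given in 4 comparisons. Leaving out 1 array at a time gave 0 to 1 members for the siRNAs at 24 h, 0 to 2 for C61A against WT at 6 h (2 where the doubtful array is alone in its group), and 1 to 2 for run 3 against run 1, which had 2 without the doubtful arrays. KO against WT at 24 h had 1 without the doubtful and run 3 6 h arrays, which drops the arrays whose spread enters the error. Ctsk in WT at 6 h was -0.001 in run 1 alone. Slpi in C61A at 6 h was -0.16 without the doubtful arrays and ran from -0.16 to 2.23 when single arrays were left out, so that it rests on C61A 6 h replicate 2. Without a filter or with rescaled arrays no count of members moved. Rhox5 failed the filter in microglia without the doubtful arrays.

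With a replicate block 0 members were called in the treatment, siRNA and genotype comparisons. Between runs 1 (Slpi) was called, with -1.08 (adjusted p = 0.0206, limma), but the block there compares levels fitted for replicate 1. That value is another contrast than the -1.39 and no check on it. The block brought Mycn in BV-2 cells at 24 h to an adjusted p of 0.0504 and Rhox5 between siRNAs at 24 h to 0.0657 (limma), and changed no call. Slpi between runs kept its call in every alternative run, none of which took cultures as the unit. Of 44 other member values, 25 changed sign under some alternative and 0 passed the threshold. Counts of all genes called moved more. With 1 array left out they ran from 107 to 739 for IFN-b at 6 h in BV-2 cells (295 with all arrays), 232 to 1810 at 24 h (1025) and 5 to 1917 for the siRNAs at 24 h (383). In microglia they ran from 367 to 1703 for IFN-b at 6 h (1226), 54 to 428 at 24 h (206), and 175 to 1553, 19 to 1260 and 1012 to 2477 for KO at 0 h, 6 h and 24 h (1336, 662 and 2313). The replicate block by number within a run gave 876, 1819 and 1456 for the 3 BV-2 comparisons. The block by culture across times, which follows the pairing found, was run for IFN-b alone. It gave 1059 and 2041 genes at 6 h and 24 h in BV-2 cells, and 2632 and 1338 in WT microglia. With the control siRNA alone 71 and 36 genes were called at 6 h and 24 h in BV-2 cells, and with run 3 alone 0 for IFN-b in WT.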
